A study of Mus musculus with 12 samples.

Results

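The FGF receptor genes of the mouse are Fgfr1, Fgfr2, Fgfr3, Fgfr4 and Fgfrl1, and they were followed here through 12 libraries of cultured embryonic salivary glands. They were chosen by symbol, as 5 of the 52636 gene identifiers in the table, and not by a cut on their values. Earlier results of these data were known when the choice was made. Their identifiers are ENSMUSG00000031565 for Fgfr1, ENSMUSG00000030849 for Fgfr2, ENSMUSG00000054252 for Fgfr3, ENSMUSG00000005320 for Fgfr4 and ENSMUSG00000008090 for Fgfrl1. Glands were taken from E13.5 embryos and cultured for 2 days, and the labels put every library in a single batch. Of the glands labelled wild type, 3 libraries had the solvent DMSO and 3 had SU5402 at 2.5 µM (FGFRi), a small molecule that blocks the kinase of FGF receptors and also acts on some other receptor tyrosine kinases. The other 6 libraries had no treatment and came from a cross in which K14Cre removes Fgfr2b: 2 libraries each of WT, HET and HOM glands, where HOM is labelled -/- and the others are littermate controls. The keratin 14 promoter is active in epithelium, so the deletion is not aimed at the mesenchyme. The labels do not say whether WT glands carry Cre, how many glands were pooled per library, or whether replicates came from separate litters.

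FGF receptors are membrane proteins with immunoglobulin-like domains outside the cell and, in Fgfr1 to Fgfr4, a tyrosine kinase inside it, and a bound ligand together with heparan sulfate pairs them and switches the kinase on. In Fgfr1, Fgfr2 and Fgfr3, alternative splicing of the third immunoglobulin-like domain makes a IIIb form, typical of epithelium, and a IIIc form, typical of mesenchyme. In the salivary gland, Fgf10 and Fgf7 from the mesenchyme act on the IIIb form of Fgfr2 in the epithelium, which is needed for the gland to grow and branch.

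The counts are per gene, so they do not separate these forms. The exon that makes the IIIb form of Fgfr2 is shown because the cross is designed to remove that form, which gene-level counts cannot check in these libraries. It was read from GENCODE M21 transcripts and is printed 5′ to 3′ on the coding strand, all in lower case.
Fgfr2 IIIb exon: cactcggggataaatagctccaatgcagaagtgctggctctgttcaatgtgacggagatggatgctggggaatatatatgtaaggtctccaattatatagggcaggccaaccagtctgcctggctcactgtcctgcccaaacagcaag
The exon has 148 bases and was found as a coding exon in 10 transcripts. It makes up 3.43% of the longest of them, so a gene-level count of Fgfr2 rests mostly on bases outside it.

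Total counts ran from 6043701 to 22322182 per library, and features that resemble ribosomal RNA took 21.8% to 39.6% of them, with the highest share in FGFRi 1. All 14 markers of a list of epithelial genes were detected in every library, and so were all 17 mesenchymal markers except 1 in DMSO 1. Read from Xist and the Y-linked genes, HOM was female throughout and all 4 WT and HET libraries were male, so sex and genotype cannot be told apart in that comparison. Among the treated and solvent libraries only DMSO 2 was male. Levels below are TMM-normalized CPM, counts scaled to a common library size. Changes are log2 fold changes with their standard error (SE) from edgeR's quasi-likelihood test, and a gene was called at a Benjamini-Hochberg adjusted p under 0.05 over the 15859 genes tested.

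Compared per kilobase of transcript, Fgfr1 had the highest mean level over the 12 libraries, at 36.9 CPM per kb. Fgfr2 followed at 21.0, Fgfrl1 at 14.1, Fgfr3 at 1.95 and Fgfr4 at 0.378 CPM per kb. This order was the same in the mean of every group. Of all counts that fell on the 5 genes in a library, Fgfr1 took 54.8% to 61.6% and Fgfr2 25.8% to 33.0%. Fgfrl1 took 8.85% to 11.95%, Fgfr3 1.46% to 5.76% and Fgfr4 0.0617% to 1.10%. The counts of the family therefore lay almost wholly on Fgfr1, Fgfr2 and Fgfrl1 in treated and mutant glands as in controls. All 5 genes passed the filter on low counts. Fgfr4 did so with 7 of 12 libraries above its minimum of 0.844 CPM, where 2 were needed, and the other receptors with all 12. For Fgfr4 these were DMSO 2, FGFRi 1 and 3, and the HET and HOM libraries, with none of WT. It therefore passed through the libraries where it is high.

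**Figure D1:**
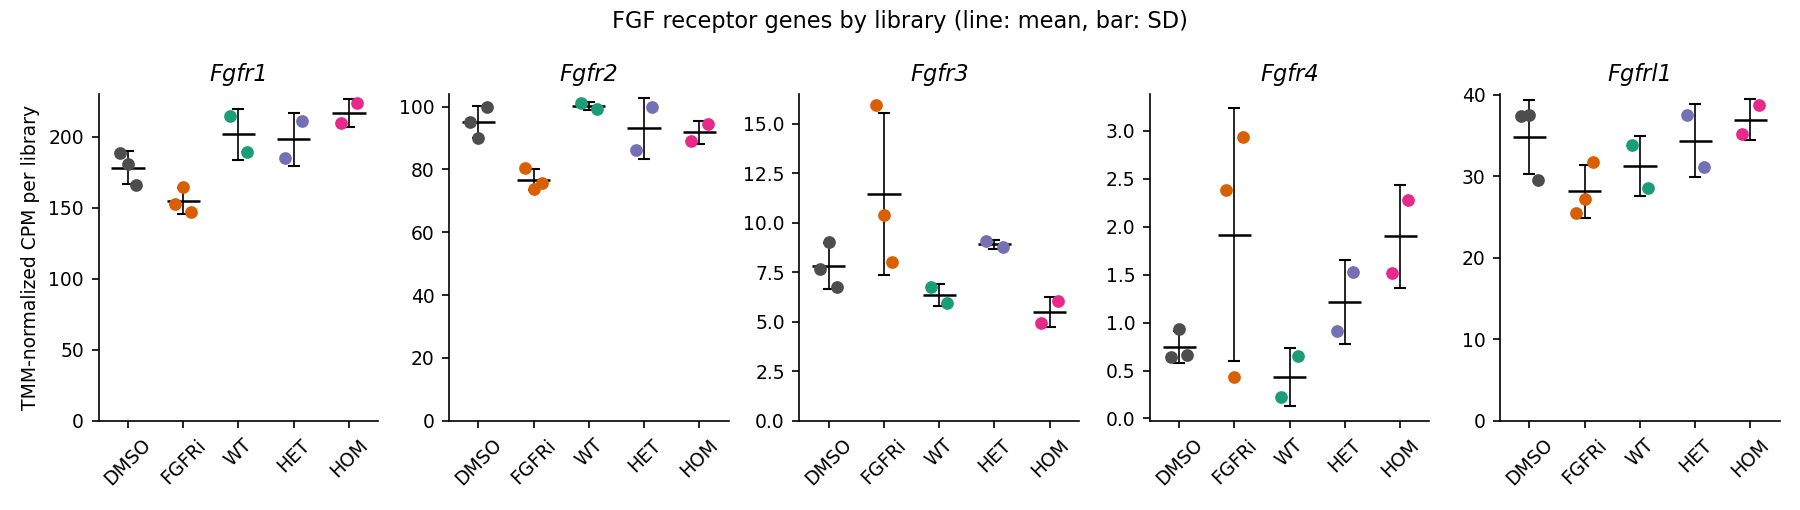
TMM-normalized CPM of the 5 receptor genes (y axis, a separate linear scale from 0 for each gene) in DMSO, FGFRi, WT, HET and HOM (x axis). Points are libraries, lines group means and bars SD; Fgfr2 lies between 73.9 and 80.6 CPM in FGFRi, below every other library.

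Fgfr2, the receptor whose epithelial form binds Fgf10, is the gene altered in the cross. WT libraries had 101 and 99.2 CPM, HET libraries 86.2 and 99.9, and HOM libraries 89.2 and 94.4. The HOM libraries lay between those of HET, within the range of the controls. In DMSO it was 95.2, 90.0 and 100.0 CPM, and with the inhibitor 80.6, 73.9 and 75.8. All FGFRi libraries were below all DMSO libraries. By group mean the order was WT, DMSO, HET, HOM and FGFRi, from 100.1 to 76.7 CPM. Only across the last step, from HOM to FGFRi, did the libraries of neighbouring groups not overlap.

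With the inhibitor Fgfr2 fell by 0.31 ± 0.08 on the log2 scale (SE, n = 3 each, edgeR adjusted p = 0.00942), from 95.04 ± 5.02 to 76.7 ± 3.44 CPM (SD). It was the single receptor gene called lower and none was called higher, where 20.5% of all genes tested were called in this comparison. The summed level of the epithelial markers was lower beside it, 1363 to 1548 CPM in FGFRi against 1865 to 2155 in DMSO, and 13 of the 14 were called lower. Epithelial genes did not all move this way: of a further list of 12 salivary epithelial genes, 8 were called lower and 1 higher. In that list the means of Krt5 (127 against 92.6 CPM), Krt14 (161 against 117) and Trp63 (66.8 against 49.7) were higher in FGFRi than in DMSO. For Krt5 and Krt14 the libraries overlapped. In bulk tissue, fewer cells of a type and less RNA per cell cannot be told apart. Scaled to the 14 epithelial markers the change of Fgfr2 was 0.15 (adjusted p = 0.256), where the median of all genes was 0.45. The call was also lost with library totals in place of TMM factors, where the change was -0.30 (adjusted p = 0.492), and without FGFRi 2 (change -0.26, adjusted p = 0.0635).

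In HOM glands Fgfr2 was not called against WT and HET together, where 5.88% of all genes were. Its change was -0.071 ± 0.08 (SE, 95% confidence interval -0.23 to 0.09, edgeR adjusted p = 0.685, n = 2 against 4). It was also not called against WT alone (-0.12, adjusted p = 0.446) or HET alone (-0.018, adjusted p = 0.967), nor in HET against WT (-0.11, adjusted p = 0.645). The percentages of all genes called in these 3 comparisons were 7.56%, 1.49% and 1.22%, and no receptor gene was called in any of them. The epithelial markers summed to 1402 to 1486 CPM in HOM, 1736 to 1839 in HET and 1974 to 2048 in WT. In HOM 8 of the 14 were called lower against WT and HET together, and 1 against HET alone. Of the 12 salivary epithelial genes, 2 were called lower and 0 higher against WT and HET together. Scaled to the 14 epithelial markers, Fgfr2 was higher in HOM by 0.32 (adjusted p = 0.0337), and scaled to the mesenchymal list it was lower by 0.48 (change -0.48, adjusted p = 0.0205). Under these scalings 7525 and 5909 of all genes tested were called, and the median change of all genes was 0.39 and -0.40.

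Fgfr1, whose IIIc form is the main receptor of mesenchyme, was at 188.6, 180.6 and 165.8 CPM in DMSO and at 152.9, 164.7 and 147.3 in FGFRi. The FGFRi libraries were the lowest of all 12, and the nearest DMSO library stood just above them. WT libraries had 214.5 and 189.0 CPM, HET libraries 185.1 and 211.3, and HOM libraries 210.0 and 223.7. The genotype groups overlapped, and HOM 2 was the highest library of the series. The order of the group means was HOM, WT, HET, DMSO and FGFRi, and of these neighbours only DMSO and FGFRi did not overlap.

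The change of Fgfr1 with the inhibitor was -0.20 ± 0.08 (SE, 95% interval -0.38 to -0.03) and was not called (edgeR adjusted p = 0.0912). In HOM it was 0.12 ± 0.08 (95% interval -0.06 to 0.30, adjusted p = 0.501). Over the same libraries the 17 mesenchymal markers summed to 2546 to 2614 CPM in DMSO and 4073 to 5700 in FGFRi. Of the 17, 16 were called higher with the inhibitor, where 20.5% of all genes were called. The sums were 2693 to 2812 CPM in WT, 3921 to 4317 in HET and 4333 to 4562 in HOM. In HOM 11 of the 17 were called higher against WT and HET together, where 5.88% of all genes were called. Against HET alone 0 were called, while 7 were called higher in HET against WT. Scaled to that list, the change of Fgfr1 with the inhibitor was -1.08 (adjusted p = 1.19e-06), and scaled to the epithelial list it was 0.26 (adjusted p = 0.0316). All genes moved with these scalings: their median was -0.88 and 0.45, and 11457 and 8688 genes were called. In HOM the same scalings gave Fgfr1 a change of -0.29 (adjusted p = 0.141) and 0.51 (adjusted p = 0.00169). There the median of all genes was -0.40 and 0.39, with 5909 and 7525 called. An antisense gene that overlaps Fgfr1, Gm16159, held 215 counts over all libraries against 28468 for Fgfr1, and the use of read strand in counting is not given in the sources used here.

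Fgfr3, known as a restraint on growing cartilage and also present in epithelia, was at 7.64, 9.05 and 6.73 CPM in DMSO and at 15.96, 10.4 and 8.02 in FGFRi. FGFRi 1 was the highest library of the series, and FGFRi 3 lay inside the DMSO range. WT libraries had 6.74 and 5.94 CPM, HET libraries 9.08 and 8.76, and HOM libraries 4.96 and 6.04. Both HET libraries were above all WT and HOM libraries, which overlapped each other. By mean the order was FGFRi, HET, DMSO, WT and HOM, and each group overlapped the next.

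Fgfr3 was not called in any comparison. Its change was 0.45 ± 0.22 with the inhibitor (SE, 95% interval -0.01 to 0.91, edgeR adjusted p = 0.163) and -0.44 ± 0.23 in HOM (95% interval -0.92 to 0.04, adjusted p = 0.31). Against WT alone, HOM differed by -0.20 ± 0.27 (adjusted p = 0.716) and against HET alone by -0.68 ± 0.25 (adjusted p = 0.252), and HET differed from WT by 0.49 ± 0.26 (adjusted p = 0.441). The inhibitor value depended on single libraries: it was 0.21 without FGFRi 1 (adjusted p = 0.54) and 0.69 without FGFRi 3 (adjusted p = 0.031). It was -0.43 when libraries were scaled to mesenchymal markers (adjusted p = 0.0544) and 0.95 when scaled to epithelial markers (adjusted p = 0.00449). The median of all genes under these scalings was -0.88 and 0.45, with 11457 and 8688 genes called. The 12 cartilage markers summed to 137 to 180 CPM in FGFRi, 271 to 349 in DMSO, 334 to 366 in WT, 270 to 301 in HET and 327 to 366 in HOM. Most of each sum lay on Col9a1, Col9a2 and Col9a3. With the inhibitor 4 of the 7 tested were called lower, those 3 and Col2a1, where 20.5% of all genes were called. Comp (1.11) and Hapln1 (0.94) were not called. Col2a1, the main collagen of cartilage, was at 15.1 to 18.4 CPM in WT, 7.96 to 8.48 in HET, 26.5 to 34.4 in HOM, 1.48 to 4.30 in DMSO and 0.550 to 0.756 in FGFRi. Acan did not exceed 0.560 CPM, and Matn1 was at 0 in all libraries but 1 of FGFRi. The part of cartilage in the level of Fgfr3 was not tested.

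Fgfr4, which is found in muscle precursors of the embryo among other tissues, was close to the limit of detection. It had 4, 18 and 4 counts in DMSO and 13, 4 and 53 in FGFRi. WT libraries had 3 and 6 counts, HET libraries 12 and 19, and HOM libraries 19 and 55. A count of 4 has an exact Poisson 95% interval of 1.09 to 10.24, which covers counting error only, since reads carry no molecular identifiers.

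On the CPM scale Fgfr4 was at 0.637, 0.936 and 0.657 in DMSO and 2.39, 0.432 and 2.93 in FGFRi, so FGFRi 2 was below every DMSO library and the other 2 were above. The WT libraries were at 0.220 and 0.648 CPM, those of HET at 0.908 and 1.53, and those of HOM at 1.52 and 2.28. HOM overlapped HET but not WT. By mean the order was FGFRi, HOM, HET, DMSO and WT, with overlap between all neighbours. The change was 1.30 ± 0.57 with the inhibitor (SE, 95% interval 0.09 to 2.52, edgeR adjusted p = 0.124) and 1.45 ± 0.55 in HOM (95% interval 0.28 to 2.62, adjusted p = 0.146). Against WT alone, HOM differed by 2.23 ± 0.73 (adjusted p = 0.0794), against HET alone by 0.67 ± 0.61 (adjusted p = 0.738), and HET differed from WT by 1.56 ± 0.78 (adjusted p = 0.4). None of these was called, and Fgfr4 entered these tests through libraries where it is high, with none of WT among them. Without FGFRi 2 the inhibitor change was 1.79 and called (adjusted p = 0.0163), and without FGFRi 3 it was 0.68 (adjusted p = 0.541). With no filter on low counts Fgfr4 was called in both comparisons (adjusted p = 0.0289 and 0.0116).

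Markers of skeletal muscle were set beside Fgfr4, and their order by library matched it only in part. The 8 muscle progenitor markers, which include the muscle regulators Myod1 and Myog, summed to 40.6, 9.29 and 49.0 CPM in FGFRi 1, 2 and 3, so the library with the least Fgfr4 in that group also had the lowest sum. In DMSO they summed to 1.11, 5.15 and 5.58 CPM, so FGFRi 2 was above every DMSO library in this sum but below every one in Fgfr4. In WT the sums were 0.879 and 0 CPM, with all 8 markers at 0 in WT 2, and in HET they were 11.7 and 19.0. WT 2 had more Fgfr4 than WT 1, at 0.648 against 0.220 CPM. In HOM the sums were nearly equal, 23.4 and 23.8 CPM, where Fgfr4 was at 1.52 and 2.28 CPM. Pax3, Myf5 and Msc did not pass the count filter, and a low marker such as Pax7 passed it through the groups where it is high, so no count of called markers is given. A list of 14 muscle fibre genes summed to 206 to 887 CPM in FGFRi, 32.5 to 102 in DMSO, 18.0 to 23.1 in WT, 120 to 224 in HET and 226 to 246 in HOM. The part of muscle in the level of Fgfr4 was not tested.

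**Figure D2:**
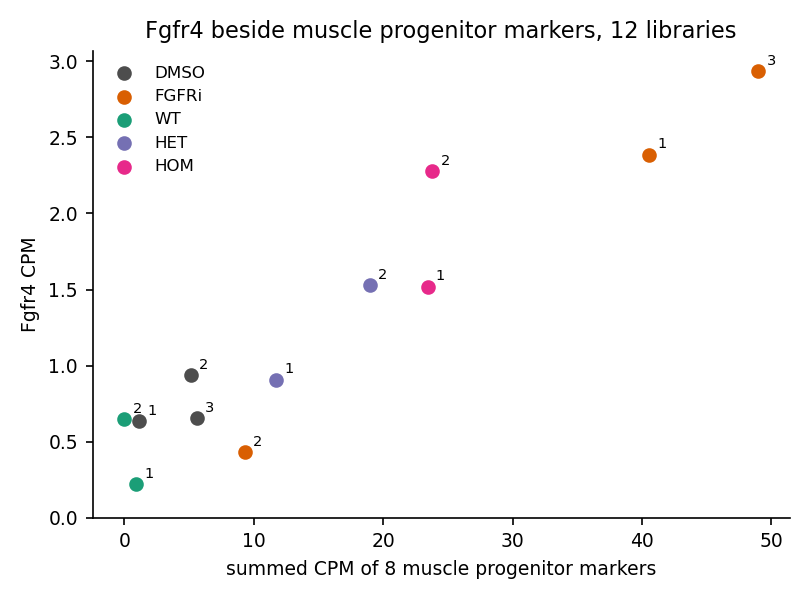
Fgfr4 CPM (y axis) against the summed CPM of 8 muscle progenitor markers (x axis) in the 12 libraries, coloured by group and numbered by replicate. FGFRi 1 and FGFRi 3 lie at the upper right, with sums of 40.6 and 49.0 CPM. FGFRi 2 lies low in Fgfr4, at a sum of 9.29, which is above every DMSO and WT library.

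Fgfrl1 encodes a receptor that binds FGF and heparan sulfate but lacks the kinase domain. It was at 37.4, 37.5 and 29.6 CPM in DMSO and at 25.5, 27.2 and 31.8 in FGFRi. The groups overlapped, since DMSO 3 was below FGFRi 3. WT libraries had 33.9 and 28.6 CPM, HET libraries 37.5 and 31.2, and HOM libraries 35.2 and 38.7, all overlapping. By mean the order was HOM, DMSO, HET, WT and FGFRi, and every neighbour overlapped. The change was -0.30 ± 0.12 with the inhibitor (SE, 95% interval -0.56 to -0.04, edgeR adjusted p = 0.0978) and 0.17 ± 0.12 in HOM (95% interval -0.08 to 0.43, adjusted p = 0.484), and neither was called. The inhibitor change was called without DMSO 3 (-0.39, adjusted p = 0.0364) and without FGFRi 3 (-0.41, adjusted p = 0.0481). It was 0.17 scaled to epithelial markers (adjusted p = 0.215) and -1.16 scaled to mesenchymal markers (adjusted p = 2.57e-06). The median of all genes under these scalings was 0.45 and -0.88, with 8688 and 11457 genes called.

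**Figure D3:**
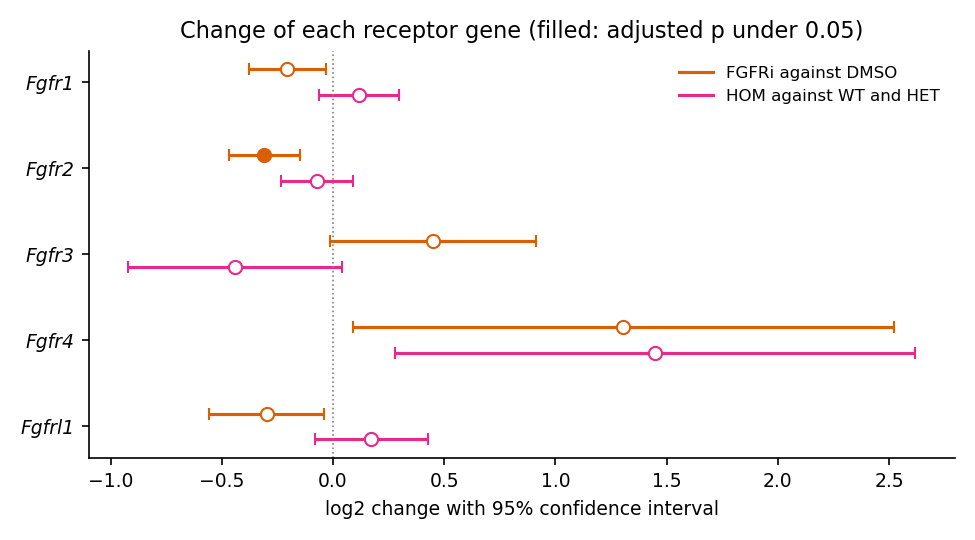
Log2 change of each receptor gene (x axis, with its 95% confidence interval) with the inhibitor against DMSO and in HOM against WT and HET. Filled points are called at an adjusted p under 0.05; Fgfr2 with the inhibitor, at -0.31, is the only one.

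The median log2 change of the 5 genes was -0.20 with the inhibitor, where that of all genes tested was -0.015, and 0.12 in HOM, where that of all genes was 0.00055. The difference between the inhibitor effect and the HOM effect was tested for each gene, and no receptor passed, where 2.77% of all genes did. It was -0.32 for Fgfr1 (edgeR adjusted p = 0.166), -0.24 for Fgfr2 (0.282), 0.89 for Fgfr3 (0.153), -0.14 for Fgfr4 (0.958) and -0.47 for Fgfrl1 (0.164). A different response of any receptor to the inhibitor and to the deletion was therefore not shown. DMSO against untreated WT, which compares the control groups of the 2 experiments, also called no receptor, where 2.26% of all genes were called. Fgfr1 had the lowest p of the 5 there, at -0.18 ± 0.09 (SE, adjusted p = 0.403).

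Because each library holds both tissues, receptors were also set against each other within it, as ratios of counts that need no scaling between libraries. The ratio of Fgfr1 to Fgfr2 was 1.90 to 2.23 in FGFRi and 1.66 to 2.01 in DMSO, with overlap (exact permutation test, two-sided, p = 0.6). It was 2.35 and 2.37 in HOM and 1.90 to 2.15 in WT and HET, so HOM lay above all 4 controls by 0.19 on the log2 scale of the means. With 2 libraries against 4, the exact permutation p of 0.0667 is the smallest the design allows, and it was 0.2 after adjustment over the 6 ratios tested.

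Fgfr3 relative to Fgfr2 had a mean ratio of 0.144 in FGFRi and 0.0823 in DMSO with no overlap (exact permutation p = 0.1, the smallest possible with 3 against 3, and 0.3 adjusted). Fgfrl1 relative to Fgfr2 was alike in mean, at 0.366 and 0.365, with ranges of 0.317 to 0.419 and 0.296 to 0.417 (exact permutation p = 0.9). In HOM, Fgfr4 relative to Fgfr2 was above all controls, at 0.0206 against 0.00746 in mean (exact permutation p = 0.2), on the low counts given above.

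Fgfr2 relative to the summed epithelial markers was 0.0635 and 0.0636 in HOM and 0.0469 to 0.0575 in WT and HET, again without overlap (exact permutation p = 0.0667, adjusted 0.2). The log2 difference was 0.32, which did not pass after adjustment. Scaled to the same list, the median change of all genes in HOM was 0.39. In FGFRi this ratio was 0.0477 to 0.0592 and in DMSO 0.0418 to 0.0537, which overlapped. Fgfr1 relative to the mesenchymal markers was 0.0268 to 0.0362 in FGFRi and 0.0635 to 0.0741 in DMSO, a log2 difference of -1.10 (exact permutation p = 0.1, adjusted 0.3). Scaled to the mesenchymal list, the median change of all genes with the inhibitor was -0.88. In HOM the ratio of Fgfr1 to the mesenchymal markers was 0.0485 and 0.0490, within the joined range of the controls. It lay between the HET libraries (0.0429 and 0.0539) and below those of WT (0.0797 and 0.0672).

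**Figure D4:**
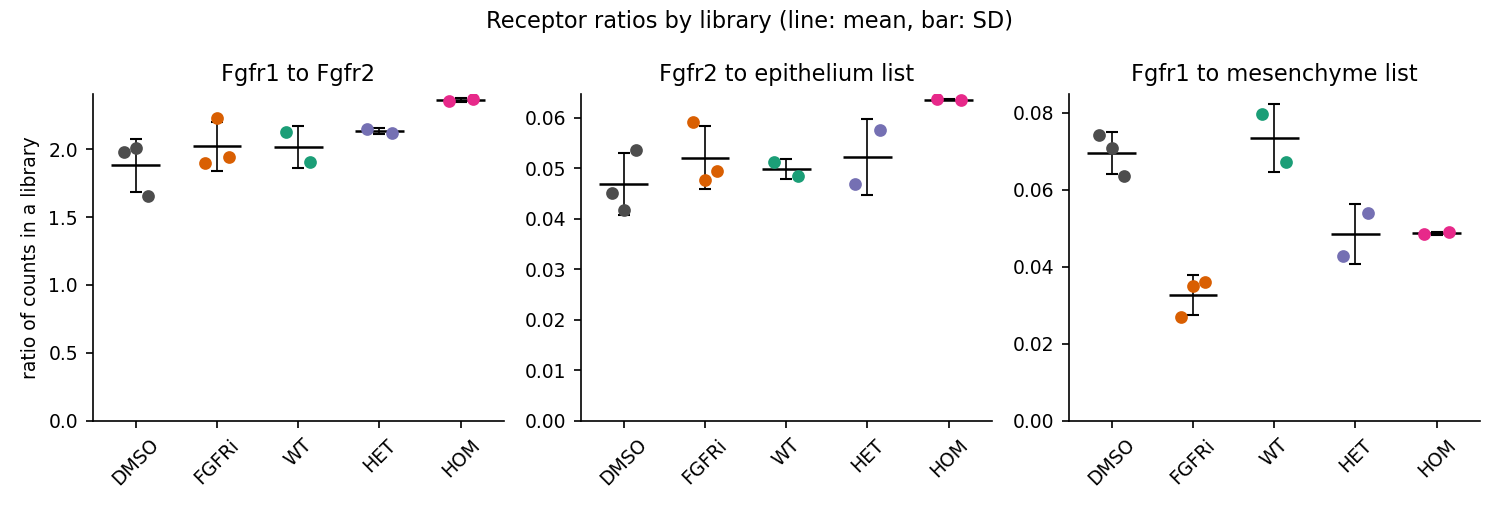
Ratios of counts within each library (y axes, linear from 0): Fgfr1 to Fgfr2, Fgfr2 to the sum of 14 epithelial markers, and Fgfr1 to the sum of 17 mesenchymal markers, by group, with mean (line) and SD (bar). HOM is highest in the first and second, at 2.35 to 2.37 and at 0.0635 to 0.0636, and FGFRi is lowest in the third, at 0.0268 to 0.0362. The marker sums themselves also differ between the groups.

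The scaling of the libraries moved all 5 receptors together. Scaled to the epithelial list, the median of all genes moved to 0.45 with the inhibitor and 0.39 in HOM, and scaled to the mesenchymal list to -0.88 and -0.40. Fgfr4 was above 0 in both comparisons under each of the 5 scalings tried. The directions of Fgfr1, Fgfr2 and Fgfrl1 with the inhibitor turned under the epithelial scaling, and that of Fgfr3 under the mesenchymal scaling.

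**Figure D5:**
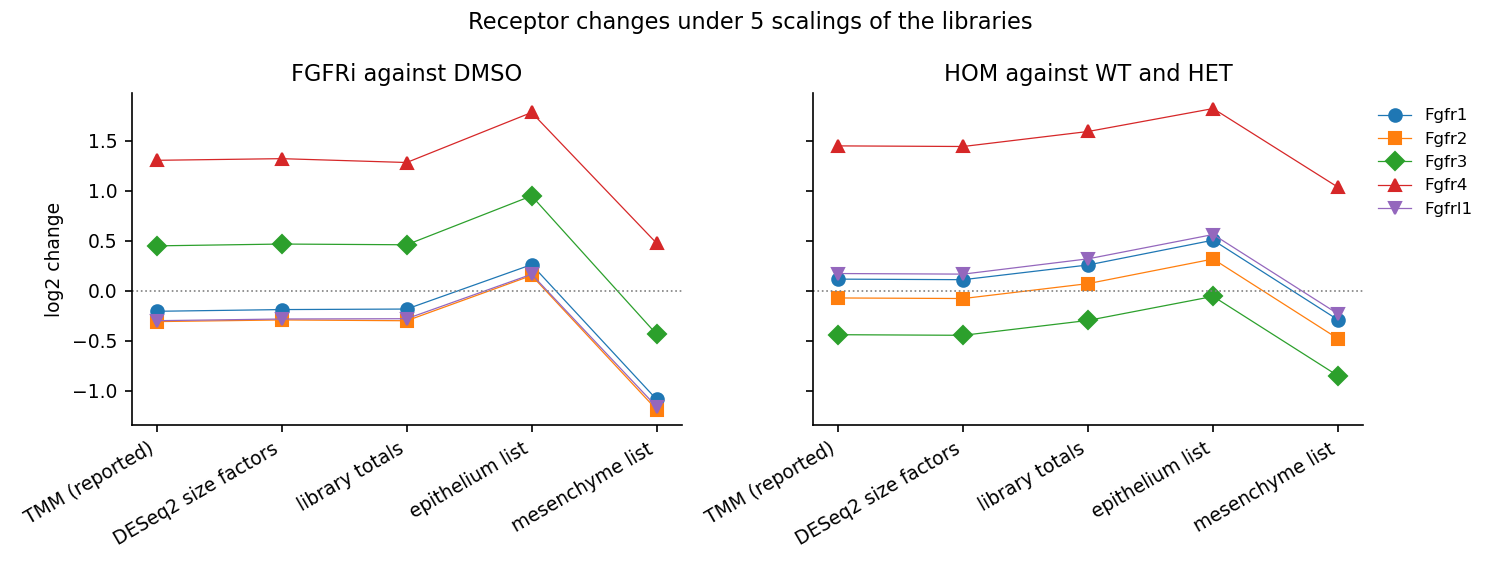
Log2 change of each receptor gene (y axis) under 5 scalings of the libraries (x axis), with the inhibitor (left) and in HOM (right); lines only link the points of 1 gene. With the inhibitor, Fgfr2 moves from -0.31 under TMM to 0.15 under the epithelial list, and Fgfr1 from -0.20 to -1.08 under the mesenchymal list.

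Genes whose log2 CPM was most like that of each receptor over the 12 libraries were taken from 10375 genes with a mean of at least 5 CPM (10376 for Fgfr4). These values describe libraries that share group, depth and composition, and the top of so many genes is high by selection. For Fgfr1 they were Lrrc14 (Pearson r = 0.983), Papln (0.958), Vars2 (0.954), Wdtc1 (0.951) and Ube2o (0.949). For Fgfr2 they were Hpn (r = 0.939), Dpp9 (0.930), Ppp4r1 (0.925), Twnk (0.911) and Pim1 (0.895). For Fgfr3 they were Tnc (r = 0.934), Itpr2 (0.924), Esrrg (0.920), Pam (0.920) and Entpd3 (0.906). For Fgfr4 they were Nes (r = 0.859), Tubb6 (0.840), Myh3 (0.838), Ryr1 (0.837) and Dnajb4 (0.834), among which Myh3 encodes embryonic myosin heavy chain and Ryr1 the calcium release channel of skeletal muscle. For Fgfrl1 they were Bloc1s4 (r = 0.907), Strn4 (0.885), Abhd17a (0.883), Ost4 (0.882) and Pgp (0.877). After the group means were removed, Lrrc14 remained among the 5 most like Fgfr1 (r = 0.960) and Pam among those most like Fgfr3 (r = 0.927). For Fgfr2, Fgfr4 and Fgfrl1 the lists then shared no gene with those above: they were led by Ltf (0.957), Smtnl2 (0.972) and Hid1 (0.983).

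Other genes of the pathway were counted by their role, beside 20.5% of all genes called with the inhibitor and 5.88% in HOM. Here rose and fell stand for called higher and called lower. Of 7 ligand genes tested, 2 rose with the inhibitor and 0 fell (median 0.32): Fgf10, the ligand of the IIIb form of Fgfr2, rose by 1.53 ± 0.15 (SE, edgeR adjusted p = 9.33e-06) from 23.9 ± 2.83 to 70.3 ± 10.8 CPM (SD, n = 3 each), and Fgf2 by 1.35. Fgf18 and Fgf1 changed by 1.11 and -0.22 and were not called. In HOM, 1 ligand rose, Fgf10 by 0.60 (adjusted p = 0.0224), and Fgf2 (0.42) and Fgf1 (-0.18) were not called. Under mesenchymal scaling, Fgf10 changed by 0.64 with the inhibitor (adjusted p = 0.000531) and by 0.21 in HOM, where its call was lost (adjusted p = 0.286), and against HET alone 0 of the 7 ligands were called. Of 16 coreceptors and binding partners, 6 rose and 1 fell with the inhibitor (median 0.27), with Cdh2 (1.46), Flrt2 (0.70, but -0.19 under mesenchymal scaling) and Ncam1 (1.29) higher and the heparan sulfate carrier Sdc4 lower (-0.54). The call of Ncam1 was lost under mesenchymal scaling (0.36, adjusted p = 0.165), and that of Sdc4 under epithelial scaling (-0.078, adjusted p = 0.393) and library totals (adjusted p = 0.118). Of the 16, 1 rose and 9 fell with the inhibitor under mesenchymal scaling (median -0.58). In HOM, 3 rose and 1 fell (median 0.24), with Gpc1 (0.59) and Flrt3 (0.65) higher and Gpc4 lower (-0.42). When HOM was set against HET alone, 1 of the 16 rose and 0 fell. Under mesenchymal scaling Gpc1 (0.19) and Flrt3 (0.25) were no longer called, and under epithelial scaling Gpc4 (-0.022) was not.

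Of 22 genes that relay the receptor signal, 1 rose with the inhibitor, the docking protein gene Frs3 (1.00, adjusted p = 0.0442, but 0.14 under mesenchymal scaling, adjusted p = 0.742), and in HOM 0 were called. Of 14 genes that restrain receptors, 2 rose and 6 fell with the inhibitor (median -0.13). Among these, Shisa2 (-0.88) and Spred1 (-0.41, but 0.052 under epithelial scaling) fell, and Sh3kbp1 (0.97, but 0.077 under mesenchymal scaling, adjusted p = 0.695) and the ubiquitin ligase gene Cblb (0.52, but -0.35 under mesenchymal scaling) rose. With library totals the calls of Frs3 (adjusted p = 0.13), Spred1 (0.298) and Cblb (0.0815) were lost, and of the 14 restraint genes 1 rose and 1 fell. Under epithelial scaling 5 of those 14 rose and 1 fell (median 0.33), and under mesenchymal scaling 0 rose and 12 fell (median -1.01). In HOM, 1 of the 14 rose, the feedback inhibitor gene Spry4 (0.56, but 0.17 under mesenchymal scaling, adjusted p = 0.415), and against HET alone 0 were called. Of 14 target genes, 10 fell with the inhibitor and 0 rose (median -0.82, and -0.37 under epithelial scaling, where 8 were lower and 2 higher), led by Etv4 (-1.21), Kit (-1.06), Etv1 (-1.28) and Epha2 (-0.89). In HOM, 2 rose and 2 fell (median -0.029): Etv4 (0.56) and Etv5 (0.52) rose, and Etv1 (-0.80) was 1 of those that fell. Set against HET alone, 2 of the 14 rose and 1 fell. The calls of Etv4 (0.15, adjusted p = 0.455) and Etv5 (0.12, adjusted p = 0.564) were lost under mesenchymal scaling, and that of Etv1 with library totals (adjusted p = 0.0933).

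Of 11 genes that control splicing of the receptors, 4 fell and 1 rose with the inhibitor (median -0.14). Esrp1, an epithelial factor that favours the IIIb exon, fell by 0.37 ± 0.06 (SE, edgeR adjusted p = 0.00095), a direction that turned to 0.098 under epithelial scaling. Rbm47 (-0.50, but -0.034 under epithelial scaling, adjusted p = 0.755) and Hnrnpm (-0.41, but 0.050 under epithelial scaling) fell, and Rbfox2 (0.30, but -0.58 under mesenchymal scaling) rose. In HOM, 2 fell, Rbm47 (-0.46, but -0.061 under epithelial scaling, adjusted p = 0.585) and Esrp1 (-0.32, adjusted p = 0.0114, but 0.077 under epithelial scaling), and 0 rose, while Esrp2 (-0.24) was not called. With library totals 0 of the 11 were called in either comparison. In HOM against HET alone 0 of the 11 rose and 1 fell. Of 42 other receptor tyrosine kinase genes, 12 rose and 8 fell with the inhibitor, and 9 rose and 3 fell in HOM. In HOM against HET alone 0 rose and 1 fell, while 4 rose and 0 fell in HET against WT. Examples of those that rose are the mesenchymal receptor genes Ddr2 (1.28) and Pdgfra (1.17) with the inhibitor and Pdgfrb (0.87), Ror2 (0.66) and Axl (0.52) in HOM. Kit (-1.06) and Epha2 (-0.89) were among those that fell with the inhibitor. Of the 42, 3 rose and 27 fell with the inhibitor under mesenchymal scaling (median -0.77). Under mesenchymal scaling the calls of Pdgfra (0.26), Ror2 (0.25) and Axl (0.12) were lost, and those of Ddr2 (0.38, adjusted p = 0.0149) and Pdgfrb (0.47, adjusted p = 0.0201) were not. Pdgfra and Pdgfrb are themselves in the mesenchymal list, so they are scaled in part to themselves.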

How the data were processed

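RNA sequencing was read in 12 libraries in 5 groups (DMSO, FGFRi, WT, HET and HOM). The values deposited by the authors are raw counts per gene. Per the submitters' processing notes, bcl2fastq and STAR were used with the genome build GRCm39. Per the labels' protocols, ribosomal RNA was depleted before library preparation. How reads were counted, with or without strand, and on which annotation is not given in the sources used here. Symbols, exons and transcript lengths came from GENCODE M21 by Ensembl identifier (52403 of 52636 had a symbol). It is on an earlier build, so no coordinates are given. A further sequence is not reported here.

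Counts were tested in R 4.3.3 with edgeR 4.0.16 (TMM factors, filterByExpr with minimum count 10 and minimum total 15, quasi-likelihood F test). All libraries entered 1 model with a mean for each group (residual df 7, biological coefficient of variation 0.110). HOM was set against the mean of WT and HET. P-values are two-sided, with Benjamini-Hochberg adjustment across 15859 genes. The SE is the log2 change divided by the square root of F. They measure the spread between these libraries, which may be technical. Replicates differed by more than counting noise (chi-square per degree of freedom 18.5 to 166). Levels per kilobase use the longest protein-coding transcript. Ratios were taken on counts with 0.5 added.

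Members and lists were chosen with earlier results of these data known. Named genes were the 5 receptors, up to 4 genes per pathway list by p with the inhibitor and up to 3 in HOM, and 5 genes per receptor by correlation of log2 CPM (prior count 2). Alternatives were other scalings, filters and models (DESeq2 1.42.0, limma-voom in limma 3.58.1), a sex covariate, a block by replicate number, and each library left out in turn. Tested on simulated data with 15562 and 15553 genes, the model recovered 66% of 2-fold changes for the inhibitor comparison and 63% for HOM, and 54% and 47% of 1.5-fold changes. Of its calls there, 4% and 11.3% were false.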

Additional observations from a re-analysis of the deposited data

Results flagged for a closer look

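The level of Fgfr2 in the 4 WT and HET libraries held 1 library far from the others. HET 1 was at 86.2 CPM, and the other 3 lay between 99.2 and 101 CPM. Its gap to the nearest of them was 0.879 of the whole range, above Dixon's critical value for 4 samples. Chance alone sets off this rule in about 1 in 20 groups. Without HET 1, the change of Fgfr2 in HOM was -0.12 (edgeR adjusted p = 0.473), against -0.071 with it, and it was not called in either case.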

How the results depend on the processing

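In the inhibitor comparison, 1 receptor and 3245 genes were called. With library totals 0 receptors and 1303 genes were called, and Fgfr2 was at -0.30. Scaled to the epithelial list, 3 receptors and 8688 genes were called, with Fgfr1 at 0.26, Fgfr2 at 0.15, Fgfr3 at 0.95, Fgfr4 at 1.78 and Fgfrl1 at 0.17. Scaled to the mesenchymal list, 3 receptors and 11457 genes were called, with Fgfr1 at -1.08, Fgfr3 at -0.43 and Fgfrl1 at -1.16. The share of calls that were higher was 47.6% under TMM factors, 78.1% under library totals, 98.2% under the epithelial and 2.51% under the mesenchymal scaling. With no low-count filter 2 receptors were called, with Fgfr4 at 1.31. A sex covariate left 2153 genes called, and leaving out DMSO 2, the only male library of this comparison, left 2161. When the compared groups were modelled alone, Fgfr4 did not pass the filter and has no value. With 1 library left out, Fgfr2 ranged from -0.35 to -0.26, Fgfr3 from 0.21 to 0.69, Fgfr4 from 0.68 to 1.79 and Fgfrl1 from -0.41 to -0.22, with 1 to 3 receptors and 1896 to 3099 genes called.

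In HOM against WT and HET, 0 receptors and 933 genes were called, and 3077 genes had an unadjusted p under 0.05 by edgeR, among them Fgfr4. DESeq2's own test, which gave Fgfr4 no adjusted p, and limma-voom also called 0 receptors. With library totals 1 receptor was called, Fgfr4 at 1.59, and Fgfr2 was at 0.072. Scaled to the epithelial list, 4 receptors and 7525 genes were called, with Fgfr1 at 0.51, Fgfr2 at 0.32, Fgfr4 at 1.82 and Fgfrl1 at 0.56. Scaled to the mesenchymal list, 2 receptors and 5909 genes were called, with Fgfr1 at -0.29, Fgfr2 at -0.48, Fgfr3 at -0.85 and Fgfrl1 at -0.23. The share of calls that were higher was 58.5% under TMM factors, 84.8% under library totals, 98.7% under the epithelial and 3.33% under the mesenchymal scaling. With no low-count filter 1 receptor and 1449 genes were called, with Fgfr4 at 1.49. The compared groups alone gave 1406 called genes, HET alone as controls 237 and a sex covariate 46. The sex term rests on DMSO 2 alone, since sex and genotype are the same split in the cross, so it cannot separate them. With 1 library left out, 140 to 658 genes and 0 receptors were called.

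Same-numbered libraries of DMSO and FGFRi did not deviate together (correlation -0.093 to -0.079). With 3 libraries a group this does not settle whether the numbers mark pairs. With a replicate block, Fgfr2 in the inhibitor comparison was at -0.31 (adjusted p = 0.0214), 2837 genes were called there and 769 in HOM, and no receptor call changed. In the cross, same-numbered WT and HOM libraries correlated at -0.33 and WT and HET at -0.22. With 2 libraries a group, unlike numbers give the same value with its sign turned, so pairing is not settled there either. A block in which the WT numbers were crossed, chosen after seeing the data, called 825 genes. The cause of these shifts was not tested. Depth limits Fgfr4 most, with 3 to 55 counts per library.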
